A study of Arabidopsis thaliana with 6 samples.

Results

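The tau and zeta glutathione S-transferases were 30 genes, the 28 tau genes *GSTU1* to *GSTU28* and the 2 zeta genes *GSTZ1* and *GSTZ2*, chosen by their loci among 27827 genes with a probe set on the array. All 30 had a value on every array. Transcripts were measured in whole seedlings of 17 days, grown in short days of 8.5 h light on MS medium with 2 mM of the reductant dithiothreitol (DTT). The mutant group was *naa20*, the T-DNA line *naa20-1* with reduced transcript of the catalytic subunit of the N-terminal acetyltransferase NatB, with 3 arrays. The other group was wildtype Col-0, also with 3 arrays, and both groups carried the DTT treatment, so every value compares *naa20* with wildtype on DTT. Per the labels, seedlings were moved to DTT at 2 days and stayed there for 15 days, and were harvested as 3 pools of at least 10 seedlings. The mutant is 1 insertion line. The sources differ on the material, since the methods describe germination on DTT with *naa20* seeds kept on control medium beforehand, and a legend names individual plants in place of pools. Arrays of seedlings without DTT were not analysed here.

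Glutathione S-transferases (GSTs) join the tripeptide glutathione to electrophilic compounds such as herbicides, products of lipid oxidation and plant metabolites. The conjugates are then pumped into the vacuole and broken down. The tau class is found in plants and is the largest of the classes in *Arabidopsis*, with many genes in tandem clusters. Single tau genes are known for strong induction by xenobiotics and by other stresses, partly through TGA transcription factors and their partner SCL14. The zeta enzyme is maleylacetoacetate isomerase, which acts near the end of tyrosine breakdown. In the gene table used for positions, 18 of the 30 genes were on chromosome 1, 9 on chromosome 2, 2 on chromosome 3 and 1 on chromosome 5, and 25 of them belonged to 8 tandem clusters of 2 to 7 genes.

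The *NAA20* transcript was lower in *naa20*, with log2 signals of 7.44, 6.98 and 7.54 in *naa20* and 8.69, 8.56 and 8.83 in wildtype (difference -1.38, limma adjusted p = 0.000689). On DTT, 19 of the 30 GST genes had a higher mean signal in *naa20* than in wildtype, against 49.6% of all probe sets, and 11 a lower one. A gene was called when limma, fitted across all probe sets, gave a Benjamini-Hochberg adjusted p under 0.05 and the difference was at least 2-fold. By this rule 10 tau genes were higher in *naa20* (33.3% of the 30 genes), against 4.95% of all probe sets, and 1 tau and 1 zeta gene were lower (6.67%), against 4.97% of all probe sets. The median log2 difference, always given as *naa20* minus wildtype, was 0.55 over the 30 genes and -0.00 over all probe sets. Without the third *naa20* array the median was 0.40. An adjusted p under 0.05 with any fold was reached by 23 genes (76.7%, against 33.9% of all probe sets), of which 16 were higher and 7 lower in *naa20*. The arrays of the genotypes did not overlap for 23 genes as well (76.7%, against 47.5% of all probe sets).

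**Figure D1:**
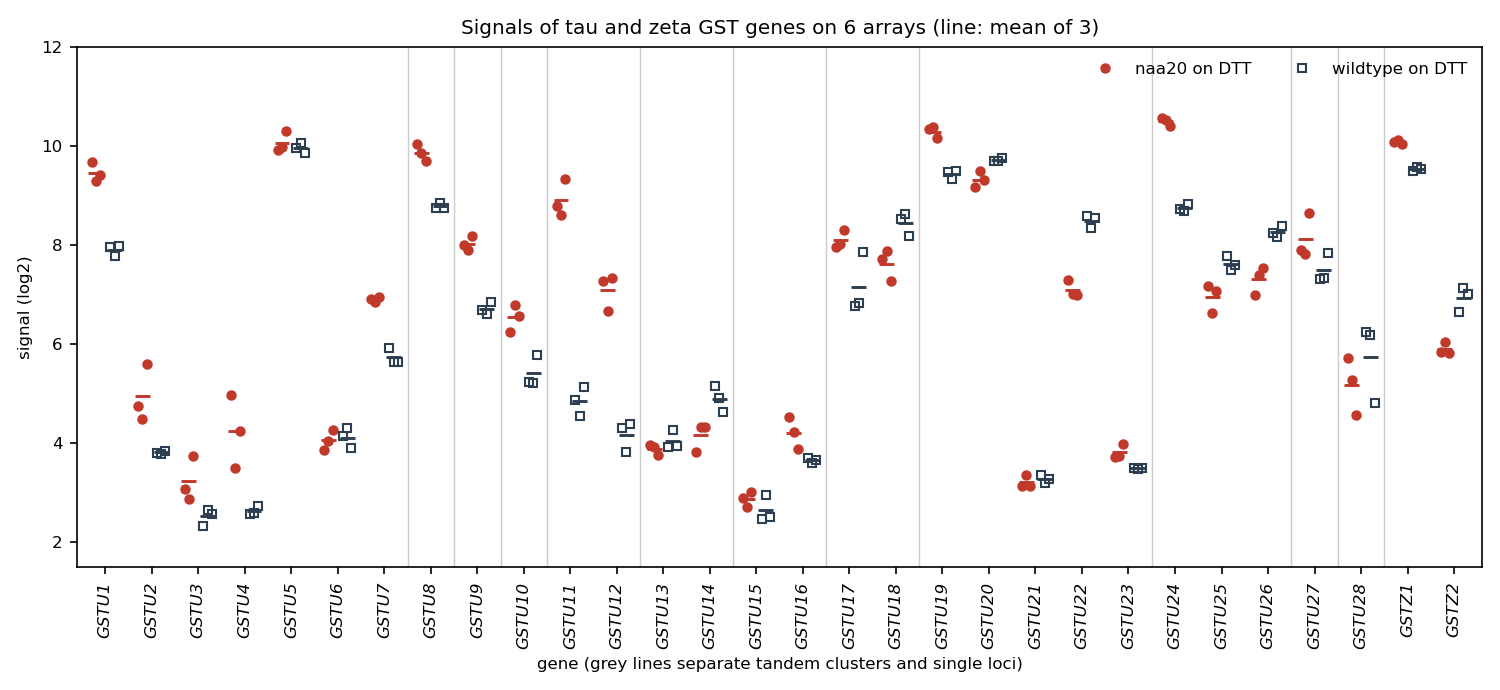
Log2 signal (y axis) of each tau and zeta GST gene (x axis) on the 3 *naa20* arrays (filled circles, left of each pair) and the 3 wildtype arrays (open squares), with horizontal lines at the mean of 3 arrays and grey lines between tandem clusters and single loci. *GSTU11* and *GSTU12* show the widest separation, while *GSTU5*, *GSTU6* and *GSTU21* overlap between the genotypes. The height of one gene against another has no meaning, since probes differ in brightness.

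Of the 12 called genes, 9 stayed called with each array left out in turn. *GSTU8* came out under 2-fold without the first *naa20* array, *GSTU2* without the third *naa20* array, and *GSTZ2* without the third *naa20*, the second wildtype or the third wildtype array. The called gene nearest to the 2-fold limit was *GSTZ2* with a log2 difference of -1.03, and the nearest one outside was *GSTU26* with -0.95. Tau genes resemble each other in sequence within a cluster, and whether a probe set also reads a neighbour was not tested. The models of 7 of the 30 genes overlap another annotated locus. A mean signal in the lowest 25% of all probe sets (under 3.75 on the log2 scale) was found for *GSTU3*, *GSTU4*, *GSTU15*, *GSTU21* and *GSTU23*, which limits what their differences can show. The arrays measured whole seedlings, so fewer cells of a type and less RNA per cell cannot be told apart. All 8 listed root marker genes were lower in *naa20* and called, against 4.97% of all probe sets. Their mean log2 signal was 4.97 to 5.31 on *naa20* arrays and 7.40 to 7.82 on wildtype arrays. Of 8 leaf marker genes, 7 were lower in *naa20* with an adjusted p under 0.05, against 17.4% of all probe sets. Of these 7 genes, 0 were 2-fold lower, against 4.97% of all probe sets lower and called. The remaining leaf marker, *RBCS1A*, had a log2 signal of 14.18 on every array. This exact tie cannot show whether its transcript changed. With *RBCS1A* included, the mean log2 signal was 11.05 to 11.34 on *naa20* arrays and 11.72 to 11.82 on wildtype arrays. The part of these tissue markers in the GST values was not tested.

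**Figure D2:**
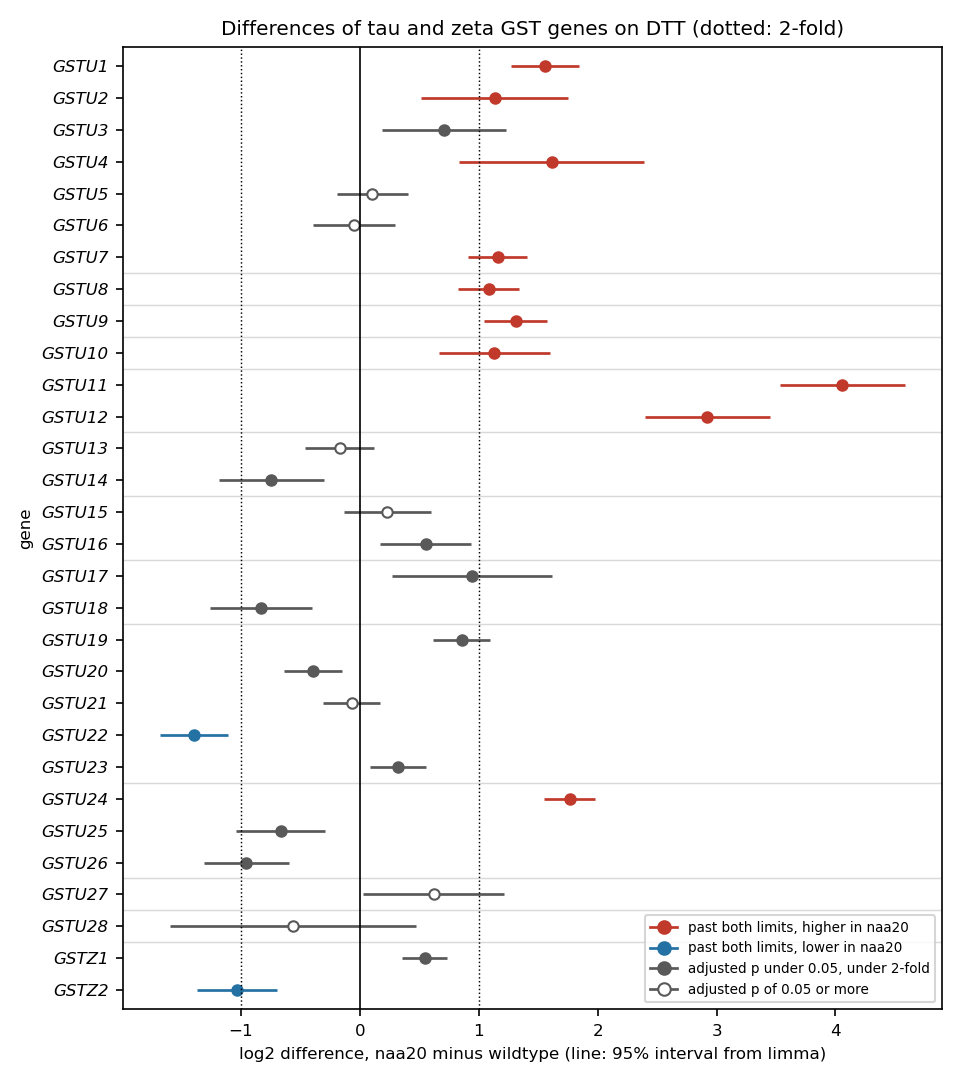
Log2 difference of *naa20* minus wildtype (x axis) for each gene (y axis), with the 95% interval from limma, dotted lines at 2-fold and grey lines between clusters. Red and blue mark genes past both limits, 10 higher and 2 lower in *naa20*, and open points mark the 7 genes with an adjusted p of 0.05 or more.

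The pair *GSTU11* (AT1G69930) and *GSTU12* (AT1G69920) on chromosome 1 had the highest differences of the family. *GSTU11* had log2 signals of 8.80, 8.60 and 9.34 in *naa20* and 4.88, 4.54 and 5.14 in wildtype. The lowest *naa20* array lay 3.46 above the highest wildtype array, so the genotypes were far apart. The fitted difference was 4.06 (standard error 0.22, limma adjusted p = 4.22e-05), a 16.6-fold higher signal in *naa20*. *GSTU12* had 7.28, 6.67 and 7.33 in *naa20* and 4.31, 3.82 and 4.39 in wildtype. In this gene too all *naa20* arrays were above all wildtype arrays, with a difference of 2.92 (standard error 0.22, limma adjusted p = 0.000126), or 7.58-fold. The second array was the lowest of its genotype for both genes, in *naa20* and in wildtype alike. With each array left out in turn the difference of *GSTU11* was 3.84 to 4.21 and that of *GSTU12* 2.75 to 3.14. No other annotated gene lies between them.

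The cluster of *GSTU1* to *GSTU7* on chromosome 2 is the largest tandem group, and its genes split into 5 that were higher in *naa20* with an adjusted p under 0.05, 4 of them called, and 2 that overlapped between the genotypes. *GSTU1* (AT2G29490) had log2 signals of 9.67, 9.30 and 9.41 in *naa20* and 7.96, 7.78 and 7.99 in wildtype, a difference of 1.56 (standard error 0.12, limma adjusted p = 0.00014). *GSTU7* (AT2G29420), at the other end of the cluster, had 6.90, 6.84 and 6.95 in *naa20* and 5.92, 5.65 and 5.65 in wildtype. Both end genes were tightly grouped within each genotype, and *GSTU7* was 2.23-fold higher in *naa20* (limma adjusted p = 0.000251). *GSTU2* (AT2G29480) had 4.76, 4.49 and 5.60 in *naa20* and 3.81, 3.79 and 3.84 in wildtype. *GSTU4* (AT2G29460) had 4.98, 3.50 and 4.25 in *naa20* and 2.58, 2.59 and 2.73 in wildtype. The *naa20* arrays of *GSTU2* and *GSTU4* spread over more than 1 log2 unit while the wildtype arrays were almost equal, and the highest *naa20* array was the third for *GSTU2* and the first for *GSTU4*. Their differences were 1.14 and 1.61 (limma adjusted p = 0.0138 and 0.00821). With ordinary variance per gene in place of limma's moderation neither passed, with an adjusted p of 0.0817 for *GSTU2* and 0.0645 for *GSTU4*. *GSTU3* (AT2G29470) had a difference of 0.71 (limma adjusted p = 0.0452), and leaving out single arrays gave an adjusted p of 0.0255 to 0.135.

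In the middle of the same cluster, *GSTU5* (AT2G29450) had log2 signals of 9.92, 9.99 and 10.30 in *naa20* and 9.96, 10.06 and 9.86 in wildtype. Of the *naa20* arrays, 2 fell within the wildtype range, and the difference of 0.11 had a 95% interval from -0.19 to 0.40 (limma adjusted p = 0.574). *GSTU6* (AT2G29440) had 3.86, 4.05 and 4.28 in *naa20* and 4.13, 4.30 and 3.90 in wildtype, with an interval from -0.40 to 0.30. For these 2 genes a 2-fold difference lies outside the interval. Both signs changed with single arrays left out.

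The 5 tau genes outside tandem clusters held 3 that were called and higher in *naa20*. *GSTU8* (AT3G09270) had log2 signals of 10.04, 9.85 and 9.71 in *naa20* and 8.76, 8.84 and 8.75 in wildtype (difference 1.08, limma adjusted p = 0.000357). *GSTU9* (AT5G62480) had 8.01, 7.89 and 8.19 in *naa20* and 6.70, 6.61 and 6.85 in wildtype (difference 1.31, limma adjusted p = 0.000201). *GSTU10* (AT1G74590) had 6.25, 6.80 and 6.58 in *naa20* and 5.23, 5.21 and 5.78 in wildtype (difference 1.13, limma adjusted p = 0.00422). These 3 loci, on 3 different chromosomes, were thus higher in *naa20* by 2.12-fold, 2.48-fold and 2.19-fold, with no overlap between the arrays.

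The remaining single loci, *GSTU27* and *GSTU28*, overlapped between the genotypes, and their signals varied with the array number. *GSTU27* (AT3G43800) had log2 signals of 7.89, 7.81 and 8.66 in *naa20* and 7.31, 7.34 and 7.84 in wildtype, so that the third array was the highest of each genotype. Its difference was 0.62 (95% interval 0.03 to 1.22, limma adjusted p = 0.102, and 0.00776 when replicate number was fitted as a block). Without the third *naa20* array the difference was 0.35 (limma adjusted p = 0.199). *GSTU28* (AT1G53680) had 5.71, 5.28 and 4.56 in *naa20* and 6.25, 6.18 and 4.80 in wildtype, with the third array the lowest of each genotype. Its difference was -0.56 (95% interval -1.60 to 0.48, limma adjusted p = 0.385, and 0.0314 with the block). Leaving out single arrays moved it both ways. It was -1.03 without the third wildtype array (limma adjusted p = 0.0499), but -0.25 without the third *naa20* array, -0.31 without the first wildtype array and -0.34 without the second wildtype array (limma adjusted p = 0.73, 0.695 and 0.669). What the third arrays share is not given in the sources used here.

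In 4 of the 8 tandem clusters, genes with an adjusted p under 0.05 went both ways, and 3 of these did so with each array left out in turn. The share among other gene clusters was not computed, and 76.7% of the 30 genes had an adjusted p under 0.05. *GSTU24* to *GSTU26* on chromosome 1 are an example of a cluster that went both ways. *GSTU24* and *GSTU25* encode enzymes known to conjugate the explosive TNT. *GSTU24* (AT1G17170) had log2 signals of 10.57, 10.54 and 10.41 in *naa20* and 8.72, 8.68 and 8.82 in wildtype, a difference of 1.76 (standard error 0.09, limma adjusted p = 3.37e-05), or 3.40-fold. *GSTU25* (AT1G17180), next to it with no annotated gene between, had 7.17, 6.63 and 7.07 in *naa20* and 7.77, 7.50 and 7.59 in wildtype. Its signal was thus lower in *naa20* on every array, by a difference of -0.66 (limma adjusted p = 0.0157, and 0.0583 without the first wildtype array). *GSTU26* (AT1G17190) had 6.99, 7.41 and 7.53 in *naa20* and 8.25, 8.16 and 8.38 in wildtype, a difference of -0.95 (limma adjusted p = 0.00271). It was also lower in *naa20* without overlap and reached 2-fold with the second or the third *naa20* or the second wildtype array left out.

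The cluster of *GSTU19* to *GSTU23* on chromosome 1 held 2 genes that were higher and 2 that were lower in *naa20* with an adjusted p under 0.05, of which 1 was called. *GSTU19* (AT1G78380), an enzyme known for its induction by herbicide safeners, had log2 signals of 10.35, 10.38 and 10.15 in *naa20* and 9.47, 9.34 and 9.50 in wildtype (difference 0.86, limma adjusted p = 0.00071). *GSTU22* (AT1G78340) had 7.29, 7.01 and 7.00 in *naa20* and 8.59, 8.34 and 8.55 in wildtype. It was the lowest of the tau genes in difference, with -1.39 (standard error 0.12, limma adjusted p = 0.000209), and 2.62-fold lower in *naa20*. *GSTU20* (AT1G78370), whose protein binds the jasmonate-conjugating enzyme JAR1, had 9.17, 9.49 and 9.31 in *naa20* and 9.69, 9.71 and 9.76 in wildtype. This difference of -0.40 (limma adjusted p = 0.0236) was small but without overlap, and leaving out single arrays gave an adjusted p of 0.0152 to 0.0762. *GSTU23* (AT1G78320) differed by 0.32 (limma adjusted p = 0.0454, and 0.0573 in the fit with the block), and no fit with an array left out brought it under 0.05, the lowest adjusted p being 0.0614. *GSTU21* (AT1G78360) overlapped between the genotypes (-0.07, 95% interval -0.31 to 0.17).

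*GSTU17* and *GSTU18* on chromosome 1 also differed in direction. *GSTU17* (AT1G10370, also *ERD9*), known from dehydration, abscisic acid and light signalling, had log2 signals of 7.96, 8.02 and 8.31 in *naa20* and 6.78, 6.83 and 7.85 in wildtype. The third wildtype array stood apart from the other 2 and lay just under the *naa20* arrays, and the difference was 0.94 (limma adjusted p = 0.0388). Without that array it was 1.29 (adjusted p = 0.000942), and without any one of the other 5 arrays the adjusted p was 0.0794 to 0.12. *GSTU18* (AT1G10360) had 7.71, 7.87 and 7.28 in *naa20* and 8.53, 8.63 and 8.19 in wildtype, a difference of -0.83 (limma adjusted p = 0.0115). The third array was the lowest of each genotype for *GSTU18* and the highest for *GSTU17*. The 2 gene models overlap in the gene table.

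In the zeta pair on chromosome 2, *GSTZ1* (AT2G02390) had log2 signals of 10.08, 10.13 and 10.04 in *naa20* and 9.50, 9.58 and 9.54 in wildtype. All arrays of a genotype agreed within 0.1 log2 units, and the difference was 0.55 (standard error 0.08, limma adjusted p = 0.00202). *GSTZ2* (AT2G02380) had 5.84, 6.05 and 5.81 in *naa20* and 6.66, 7.13 and 7.02 in wildtype, a difference of -1.03 (standard error 0.14, limma adjusted p = 0.00151). The 2 zeta genes thus went opposite ways, and for both the adjusted p was under 0.05 with each array left out in turn.

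The other 2 pairs had small differences. *GSTU14* (AT1G27140) was lower in *naa20*, with log2 signals of 3.81, 4.33 and 4.32 in *naa20* and 5.15, 4.92 and 4.63 in wildtype (difference -0.74, limma adjusted p = 0.0198, and 0.0517 to 0.0659 without the first *naa20*, the first or the second wildtype array). Its neighbour *GSTU13* (AT1G27130), known for a role in the metabolism of indole glucosinolates in defence, overlapped between the genotypes (-0.17, 95% interval -0.46 to 0.12). *GSTU16* (AT1G59700) was higher in *naa20* with 0.55 (limma adjusted p = 0.0359), but it had an adjusted p of 0.0757 to 0.102 in 5 of the 6 fits with an array left out. *GSTU15* (AT1G59670) differed by 0.23 with a 95% interval from -0.14 to 0.60. Between these 2 genes lie 3 annotated genes.

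Whether neighbours in a cluster changed by unequal amounts was examined within each array, as the log2 signal of the first gene minus that of the second, in 17 adjacent pairs. This gap changes between the genotypes when the measured log2 differences of the 2 genes are unequal. The sign of the gap has no meaning because probes differ in brightness. Unequal measured differences need not be unequal responses of the genes, since whether a probe set also reads a neighbour was not tested. Pairs with *GSTU3*, *GSTU4*, *GSTU15*, *GSTU21* or *GSTU23* include a gene of low signal, which limits what their gaps can show. For 13 of the 17 pairs the gaps of the genotypes did not overlap, against 51.4% of all 27236 pairs of neighbouring genes with a probe set. In 9 pairs the mean gap differed by at least 1 log2 unit, against 19.3% of all neighbouring pairs. Of these 9 pairs, *GSTU4*/*GSTU5*, *GSTU21*/*GSTU22* and *GSTU22*/*GSTU23* hold a gene of low signal. The GST pairs include some with another annotated gene between. The shares over all neighbouring pairs are also not matched for the single genes. The arrays of the genotypes did not overlap for 76.7% of the 30 genes, against 47.5% of all probe sets. Called were 40% of the 30 genes, against 9.92% of all probe sets. Whether neighbours differ more than any 2 of the 30 genes was not tested. In an exact two-sided permutation test of the 6 arrays these 13 pairs had p = 0.1, the smallest value this design can give, and p = 0.131 after Benjamini-Hochberg adjustment over the pairs, so no pair could pass 0.05.

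The gap changed most in the pair *GSTU24*/*GSTU25*, with 3.40, 3.91 and 3.33 in *naa20* and 0.95, 1.18 and 1.23 in wildtype, a change of 2.43 (standard error 0.20). *GSTU17*/*GSTU18* followed with 1.77 (standard error 0.55) and *GSTU22*/*GSTU23* with -1.71 (standard error 0.18). In the zeta pair the gap was 4.23, 4.08 and 4.23 in *naa20* and 2.84, 2.45 and 2.52 in wildtype, a change of 1.58 (standard error 0.13). The standard errors show that the second of these is much less precise than the other 3. *GSTU11*/*GSTU12*, which both rose, differed in size by 1.13 (standard error 0.16), with gaps of 1.51, 1.93 and 2.00 in *naa20* and 0.57, 0.72 and 0.75 in wildtype. The 4 pairs whose gaps overlapped were *GSTU1*/*GSTU2*, *GSTU5*/*GSTU6*, *GSTU15*/*GSTU16* and *GSTU25*/*GSTU26*. In 5 adjacent pairs the members had an adjusted p under 0.05 in opposite directions (5 of 17, against 5.34% of 27236 neighbouring pairs). They were *GSTU17*/*GSTU18*, *GSTU19*/*GSTU20*, *GSTU22*/*GSTU23*, *GSTU24*/*GSTU25* and the zeta pair. The share over all pairs is not matched here either, since 76.7% of the 30 genes had an adjusted p under 0.05, against 33.9% of all probe sets. The count of 5 pairs rested on single arrays. It was 1, the zeta pair, without the first wildtype array or with ordinary variance per gene. It was 2, the zeta pair and *GSTU24*/*GSTU25*, without the first *naa20*, the third *naa20* or the second wildtype array, and 3 without the second *naa20* or the third wildtype array.

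**Figure D3:**
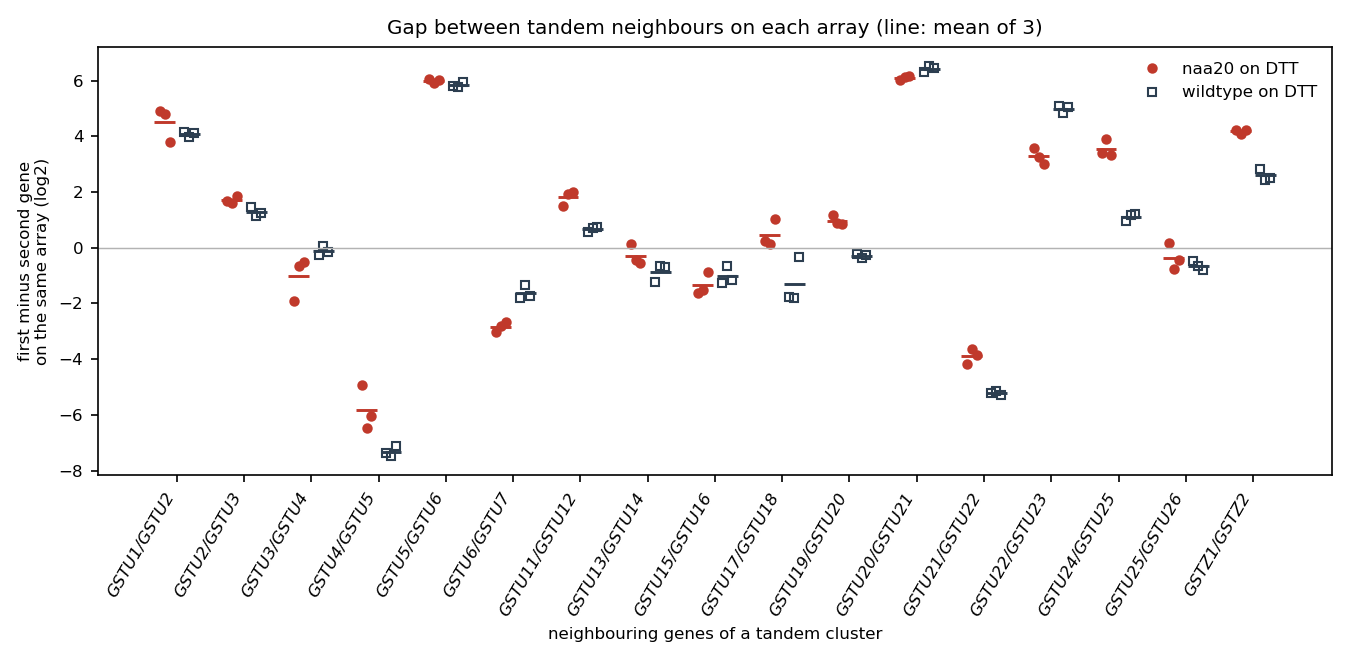
Log2 signal of the first gene minus that of the second on the same array (y axis) for 17 pairs of tandem neighbours (x axis), with 3 *naa20* arrays (filled circles, left) and 3 wildtype arrays (open squares) and lines at the mean of 3. Between the genotypes the gap moves most for *GSTU24*/*GSTU25*, by 2.43, and it overlaps for 4 pairs.

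Among the other classes, the phi GSTs, which like the tau class conjugate xenobiotics, had 6 of 13 genes higher and called and 1 lower, against 4.95% and 4.97% of all probe sets, with a median log2 difference of 0.77 beside 0.59 in the 28 tau genes. *GSTF7* (AT1G02920) was highest with log2 signals of 11.30, 10.94 and 11.07 in *naa20* and 7.43, 7.22 and 7.60 in wildtype. *GSTF14* (AT1G49860) was lowest with 3.86, 4.23 and 3.68 in *naa20* and 8.54, 8.80 and 7.90 in wildtype. The range of the phi class, from -4.49 to 3.68, was thus wider on the low side than that of the tau class, from -1.39 to 4.06. The other called phi genes were *GSTF6* (3.31), *GSTF5* (3.13), *GSTF2* (2.64), *GSTF9* (1.34) and *GSTF10* (1.15). Of 10 genes of the lambda, theta, dehydroascorbate reductase and TCHQD classes, 0 were called, against 9.92% of all probe sets in either direction. With an adjusted p under 0.05, 4 were higher and 1 lower, against 16.6% and 17.4% of all probe sets. *DHAR1* (AT1G19570), an enzyme that regenerates ascorbate with glutathione, was the highest of them with 0.98 and *DHAR3* (AT5G16710), its plastid relative, the lowest with -0.82. *DHAR1* passed 2-fold without the third *naa20* or the third wildtype array, and *DHAR2* without the second *naa20* array.

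The genes that supply and recycle glutathione, the substrate of all these enzymes, had 2 of 4 members higher and called, against 4.95% of all probe sets. *GSH2* (AT5G27380), glutathione synthetase, had log2 signals of 9.87, 9.80 and 9.94 in *naa20* and 7.84, 8.05 and 8.05 in wildtype (difference 1.89, limma adjusted p = 3.42e-05). *GSH1* (AT4G23100), which makes the precursor gamma-glutamylcysteine, had 11.23, 11.16 and 11.09 in *naa20* and 9.58, 9.56 and 9.55 in wildtype (difference 1.60, limma adjusted p = 3.42e-05). Both genes were thus higher on every *naa20* array by more than 1.5 log2 units. The cytosolic glutathione reductase gene *GR1* (AT3G24170) was higher by 0.80 (limma adjusted p = 0.000624), and the organellar *GR2* (AT3G54660) differed by -0.15 (95% interval -0.34 to 0.04).

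For the fate of the conjugates, 9 genes of transport and breakdown were listed. Of these, 7 were higher in *naa20* with an adjusted p under 0.05 (against 16.6% of all probe sets) and 0 were lower (17.4%). Of the 9 genes, 2 were higher and called, against 4.95% of all probe sets. *ABCC3* (AT3G13080), a pump of glutathione conjugates, had log2 signals of 8.98, 8.72 and 9.09 in *naa20* and 6.62, 6.29 and 6.65 in wildtype, a difference of 2.41 (standard error 0.14, limma adjusted p = 5.13e-05). *GGT1* (AT4G39640), a gamma-glutamyl transferase of the cell wall space, had 7.81, 7.68 and 8.05 in *naa20* and 6.84, 6.82 and 6.24 in wildtype (difference 1.21, limma adjusted p = 0.00225). The vacuolar pumps *ABCC1* and *ABCC2* were 0.31 and 0.34 higher (limma adjusted p = 0.0245 and 0.0438). *GGT2*, with 0.03, was the lowest of the list and overlapped between the genotypes, at a signal among the lowest 25% of probe sets.

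In tyrosine breakdown, the pathway of the zeta enzyme, 0 of 4 other genes were called, against 9.92% of all probe sets in either direction. *FAH* (AT1G12050), the hydrolase that acts just after the zeta step, was the highest with 0.60 (limma adjusted p = 0.0141). It was the only one with an adjusted p under 0.05 (25%, against 33.9% of all probe sets). *HPD* (AT1G06570), the dioxygenase that forms homogentisate, was lowest with 0.10. Among 8 genes of TGA factors and SCL14, 1 was called (12.5%, against 9.92% of all probe sets in either direction), a share near that of all probe sets. It was *TGA7* (AT1G77920), with log2 signals of 8.08, 7.76 and 7.94 in *naa20* and 6.33, 6.12 and 6.46 in wildtype (difference 1.63, limma adjusted p = 0.00014). *TGA3* was higher (0.88) and *TGA1* lower (-0.55), both with an adjusted p under 0.05, and *TGA3* reached 2-fold with the second *naa20* or the third wildtype array left out. *TGA2* (-0.04) and *TGA6* (0.01), of the subgroup known to act with SCL14 on detoxification genes, overlapped between the genotypes, and the 95% interval was -0.42 to 0.33 for *TGA2* and -0.28 to 0.30 for *TGA6*. *TGA5*, the third gene of this subgroup, differed by 0.42 (limma adjusted p = 0.053).

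**Figure D4:**
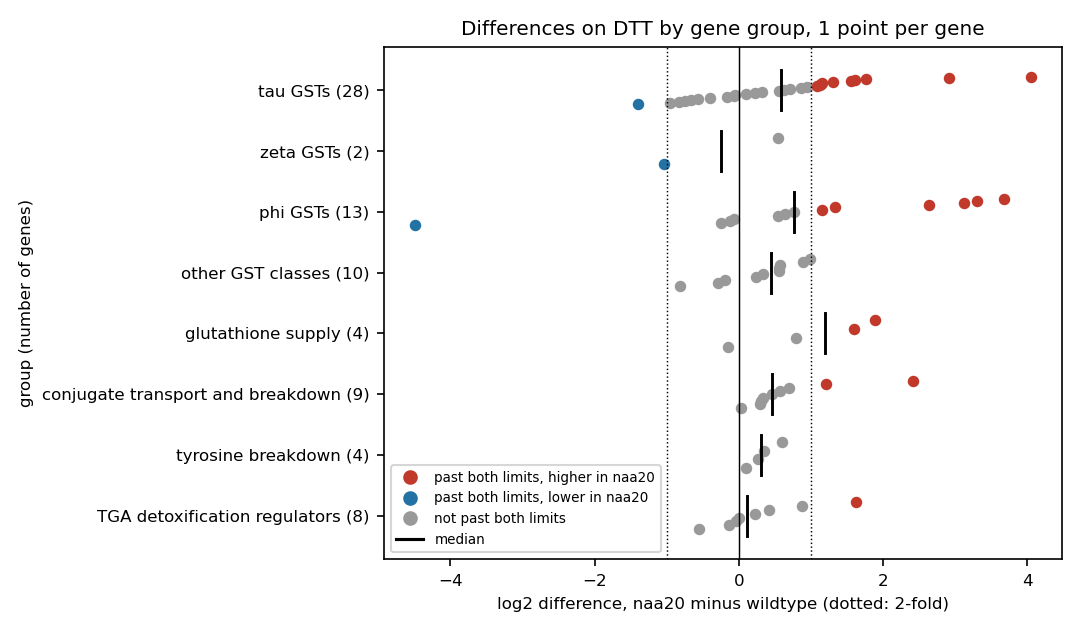
Log2 difference of *naa20* minus wildtype (x axis) for the genes of each group (y axis, number of genes in brackets), with 1 point per gene, a black line at the group median and dotted lines at 2-fold. Red and blue mark genes past both limits, 10 higher and 1 lower among the tau GSTs and 6 higher and 1 lower among the phi GSTs.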

How the data were processed

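For 6 Affymetrix Arabidopsis Gene 1.0 ST arrays the authors deposited log2 signals, made by RMA with background correction and quantile normalization, and summarised per gene by a custom TAIR-based probe annotation. The values ran from 1.75 to 14.6 and were used as deposited. Precision is limited by the number of arrays. *naa20* was compared with wildtype by limma 3.58.1 (lmFit, eBayes) in R 4.3.3, with Benjamini-Hochberg adjustment over 27827 probe sets. This step was tested on simulated data with independent noise on each array. That test does not cover deviations shared between arrays, such as those described below. Gaps between tandem neighbours were compared by an exact permutation test. No scanner files were used, so detection per probe was not examined. The RefSeq table of TAIR10.1 matched all 30 loci and was used for names and neighbouring genes only. Promoter motifs were not analysed. Figures were drawn with matplotlib 3.10.9.

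All 30 genes, the called genes of each list and its highest and lowest gene are named, *NAA20* as a check of the labels. Other genes named, such as *GR1*, *GR2*, *ABCC1*, *ABCC2*, *TGA1*, *TGA2*, *TGA3*, *TGA5*, *TGA6*, *DHAR2*, *GSTF12* and *RBCS1A*, were chosen after their values were seen. The genes, lists and tests were chosen with earlier results of these data known.

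The arrays are described as separate pools or plants, and nothing says that these were grown as separate cultures, so p-values measure the spread between these samples. Deviations from the genotype means of arrays with equal numbers correlated by 0.176, 0.19 and 0.385 across genes, all over the limit of 0.1. The numbers were therefore treated as a possible pairing. The reported limma calls and the permutation test did not use it, and a fit with the block was run as an alternative. Arrays 1 and 2 correlated across unequal numbers too (0.174 and 0.145), while the third arrays correlated below 0 with the others, so the check sets apart only the third arrays. The labels do not say what equal numbers share. The alternatives were other moderation, normalization, filter, array weights, a block for replicate number, 1.5-fold in place of 2-fold and leaving out each array in turn.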

Additional observations from a re-analysis of the deposited data

How the results depend on the processing

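The count of called genes that were higher in *naa20* was 8 to 13 under all alternatives against 10 reported, and 9 to 11 with single arrays left out. The count of lower ones was 2 to 3 with arrays left out and 6 with a 1.5-fold limit in place of 2-fold. The number of genes with an adjusted p under 0.05 from limma was 16 to 20 with an array left out, and 13 with ordinary variance per gene in place of moderation, where the genes that lost this level were *GSTU2*, *GSTU3*, *GSTU4*, *GSTU14*, *GSTU16*, *GSTU17*, *GSTU18*, *GSTU20*, *GSTU23* and *GSTU25*. Of the 23 genes, 16 stayed under 0.05 with each array left out in turn. The family median was 0.40 to 0.55 with an array left out. *GSTU5* changed sign without the third *naa20* array and had -0.011 to 0.18 with single arrays left out. *GSTU6* changed sign without the first *naa20* array or the second wildtype array (0.04) and had -0.16 to 0.050. With the replicate number as a block, 12 genes were called, the same genes as without it. The block moved *GSTU23* above an adjusted p of 0.05 (0.0573) and *GSTU27* (0.00776) and *GSTU28* (0.0314) below it, and changed no other call of the 30 genes. Centring and a further quantile normalization left all counts as they were. The deposited values were already quantile normalized, so these alternatives could hardly change them and do not test the normalization.

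With 1.5-fold in place of 2-fold, 3 genes of the other GST classes, 1 of tyrosine breakdown, 2 TGA genes and 4 leaf markers were called. With array weights 1 gene of the other GST classes was called, and with an array left out 0 to 1 of these and 1 to 2 TGA genes. Leaving out the 25% of probe sets with the lowest mean signal removed 5 of the 30 genes from the fit, among them *GSTU4*, which gave 9 higher and 2 lower called genes.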
